A study of Mus musculus with 9 samples.

Results

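Nasal and temporal optic cup were compared in mouse embryos at stage E11.5, on 6 of the 9 Affymetrix Mouse Genome arrays of the study. The members were chosen by their labels alone: 3 arrays of tissue cut by laser from the centre of the nasal cup, lettered A, B and C, and 3 arrays, with the same letters, of tissue from the matching place on the temporal side. The other 3 arrays hold cup tissue beside the optic fissure, the ventral groove of the cup; they entered the model as a further region, and their values are given here as a description. All groups are of the same age and carry no treatment or allele in the labels, and strain, sex and the number of embryos behind an array are not given in the sources used here. The arrays of a region are stated to be biological replicates, but whether a letter marks shared embryos is not, so a p-value here speaks of the spread among the deposited arrays, part of which may be technical.

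The nasal-temporal axis of the retina is laid down early in eye development and is later read by retinal ganglion cell axons when they spread over their targets in the brain. Temporal cells are known for the forkhead transcription factor Foxd1 and nasal cells for homeobox factors such as Hmx1. Ephrin-A ligands are typical of nasal retina and EphA receptors of temporal retina, and the contact between an ephrin-A and an EphA receptor usually repels the axon that carries the receptor.

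The early retinal genes Pax6, Rax, Six3, Six6 and Lhx2 were present on all 6 arrays. Pax6, a paired-box regulator of eye formation, had an intensity of 2888.6 to 3767.4 on the nasal arrays and 2797.8 to 2885.6 on the temporal arrays, and Six6 of 1388.1 to 1852.3 and 987.1 to 1735.7. Rax lay between 282.9 and 550.1, Six3 between 230.1 and 389.0, and Lhx2 between 372.4 and 674.7 over both regions. None of these defining genes of the labelled tissue was absent.

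Of 12770 genes tested, 6 differed between nasal and temporal cup at an adjusted p below 0.05 in limma, which is 0.047% of the genes tested; 3 were higher in nasal cup (0.0235%) and 3 in temporal cup (0.0235%). Foxd1, Epha5 and the monoamine-degrading enzyme gene Maob were higher in temporal cup, and Cyp1b1, Efna5 and the long noncoding RNA gene 3110039M20Rik were higher in nasal cup. With the letter as a block, so that each nasal array was set against the temporal array of its own letter, 17 genes passed (0.133%), 8 higher in nasal cup (0.0626%) and 9 higher in temporal cup (0.0705%). All 6 genes of the fit without the block were among these 17. On the 6 nasal and temporal arrays alone with no block, Foxd1, Cyp1b1 and Epha5 passed. Efna5 and Maob (adjusted p = 0.0508 each) and 3110039M20Rik (0.0572) did not, though they passed there with the block (0.0439 each). A further 11 genes passed with the block but not without it. These 11 rest on the fissure arrays as well: with the block on the 6 nasal and temporal arrays alone, Cdh9, Neurog2 and Tenm3 passed (adjusted p = 0.0467 each), A730056A06Rik did not reach the filter, and the other 7 did not pass, at 0.157 for Hmx1 and Mettl7a2, 0.108 for Pex5l, 0.0897 for Glis3, 0.0812 for Efhd1, 0.0759 for Sall1 and 0.0567 for Pak3. Differences are nasal minus temporal on the log2(intensity + 16) scale, which understates the difference of dim genes, and intensities are linear. On that scale 23 genes differed by 1 or more, 8 of them higher in nasal and 15 higher in temporal cup, and the median difference over all genes was -0.00051501.

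As a background for the counts that follow, 371 genes (2.91%) had an unadjusted p below 0.05 without the block, 135 higher in nasal (1.06%) and 236 higher in temporal cup (1.85%), and 723 (5.66%) with it. The 3 nasal and 3 temporal arrays did not overlap for 868 genes (6.8%), with all nasal arrays above for 394 (3.09%) and all temporal arrays above for 474 (3.71%). Within all 3 letters, 1888 genes were lower (14.8%) and 1819 higher (14.2%) in nasal cup. None of the 17 genes overlapped between the regions, which was also asked of a gene to be named here. Lack of overlap fixes the same direction in all 3 letters. Both rest on the same values as the calls and are no further support.

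The stretches before the start sites of 5 of these genes are shown because 4 of them have the clearest differences of known regulators, enzymes and guidance molecules, and because Epha5 and Tenm3, both higher in temporal cup, share a motif there. Each run is the 250 bases before the annotated start in RefSeq (GRCm38.p6), written 5′ to 3′ on the strand of the gene, and capitals mark TAATTA, a core recognised by many homeodomain proteins.
Foxd1, chr13:98353995-98354244, plus strand: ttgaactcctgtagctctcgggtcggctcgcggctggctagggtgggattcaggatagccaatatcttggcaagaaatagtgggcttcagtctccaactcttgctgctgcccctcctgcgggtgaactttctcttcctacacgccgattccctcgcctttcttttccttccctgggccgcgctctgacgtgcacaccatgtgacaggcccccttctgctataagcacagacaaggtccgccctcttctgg
Epha5, chr5:84417383-84417632, minus strand: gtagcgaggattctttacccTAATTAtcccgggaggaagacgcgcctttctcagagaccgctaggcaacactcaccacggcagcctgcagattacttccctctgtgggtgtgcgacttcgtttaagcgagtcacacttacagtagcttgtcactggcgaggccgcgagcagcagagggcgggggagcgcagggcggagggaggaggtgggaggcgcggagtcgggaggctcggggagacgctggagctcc
Tenm3, chr8:48674691-48674940, minus strand: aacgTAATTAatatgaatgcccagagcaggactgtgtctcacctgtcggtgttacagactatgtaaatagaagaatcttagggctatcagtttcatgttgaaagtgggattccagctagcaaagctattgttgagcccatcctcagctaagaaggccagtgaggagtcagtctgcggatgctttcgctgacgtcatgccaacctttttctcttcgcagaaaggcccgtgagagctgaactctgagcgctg
Efna5, chr17:62881318-62881567, minus strand: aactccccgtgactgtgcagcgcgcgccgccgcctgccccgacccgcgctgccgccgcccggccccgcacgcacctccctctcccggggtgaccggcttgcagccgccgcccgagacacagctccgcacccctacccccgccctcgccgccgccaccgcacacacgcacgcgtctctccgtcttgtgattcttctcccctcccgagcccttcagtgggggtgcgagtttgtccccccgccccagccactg
Cyp1b1, chr17:79715062-79715311, minus strand: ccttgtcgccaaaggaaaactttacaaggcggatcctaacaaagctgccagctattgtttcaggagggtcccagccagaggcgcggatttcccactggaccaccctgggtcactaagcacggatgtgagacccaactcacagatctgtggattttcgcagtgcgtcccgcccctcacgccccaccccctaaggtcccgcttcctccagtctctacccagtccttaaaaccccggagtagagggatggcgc

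Of the 17 genes, 15 had such a stretch in the RefSeq table, with 19 stretches in all. TAATTA reads the same on both strands. It was found for 2 of these 15 genes, 230 bases before the start of Epha5 and 246 bases before that of Tenm3. Of all 32851 stretches of this length, 4.84% hold it. TAAACA, a forkhead core, was searched on both strands (TGTTTA on the other) and lay 24 bases before 1 start of Pak3, against 12.0% of all stretches. CAAGTG, bound by NK-type homeodomain proteins, was likewise searched on both strands (CACTTG on the other) and was found for 3110039M20Rik, A730056A06Rik and Cdh9, against 11.6% of all stretches. These motifs do not overlap each other in letters. They are matches of letters in a window and not measured binding sites. The finds are given by gene and the shares by stretch. Sall1 and Pak3 have more than 1 stretch each, so these are not like measures.

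The 6 arrays had been scaled alike and had medians of 27.5 to 29.6. The ratio of the 3′ to the 5′ probe set of Gapdh, a sign of RNA and labelling quality, ran from 4.90 to 8.77 in nasal and from 4.46 to 7.42 in temporal arrays, so the regions overlapped. The signal of the Dap spike-in, an RNA added to each sample, was higher in nasal than in temporal arrays within every letter, at 395.9 against 330.1 in A, 550.7 against 452.2 in B and 853.7 against 734.1 in C, though the ranges overlapped. Fissure arrays A, B and C, which enter both fits, had Gapdh ratios of 8.12, 4.93 and 14.96. Their Dap signals were 660.3, 863.1 and 1806.1. The part of these measures in the results was not tested. The ranges for arrays of a letter and arrays of a region overlapped slightly: levels correlated at 0.982 to 0.989 between nasal and temporal arrays of a letter (3 pairs) and at 0.969 to 0.983 within a region (6 pairs), as a description across genes, which are not independent. In a principal component analysis of these arrays the first component, 41.7% of the variance, placed the arrays of a letter side by side, with C at 20.9 and 20.1 and B at -19.0 and -29.3 for nasal and temporal. The regions did not overlap on component 3, 16.9% of the variance.

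Foxd1 had the largest difference of any tested gene. Its intensity was 4.5, 4.3 and 8.5 on nasal arrays A, B and C and 849.7, 913.9 and 1004.4 on the temporal arrays. All nasal values lie below the 40th percentile of their array, so the linear ratio is not given, and every temporal value is among readily measured ones. The difference was -5.43 (SE 0.29, adjusted p = 7.72e-06; 2.42e-05 with the block), and it was -5.40, -5.52 and -5.38 in letters A, B and C. Foxd1 is also a marker of the mesenchyme around the eye; the summed intensity of the other 26 mesenchyme markers was 2141.0 to 2592.3 in nasal and 1849.1 to 2786.4 in temporal arrays, so these overlapped. In tissue of this kind, fewer cells of a type and less RNA per cell cannot be told apart.

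Hmx1, a homeobox factor of nasal retina, was higher in nasal cup at 249.4, 291.9 and 561.6 against 104.8, 70.5 and 72.2. The regions did not overlap, and nasal array C was the highest. The difference of 1.89 (SE 0.33) passed with the block and not without it (adjusted p = 0.0426 and 0.135), and without fissure array B it passed also with no block (0.0448). Sall1, a zinc-finger transcription factor, was also higher in nasal cup with the block, at 124.1, 137.9 and 72.2 against 41.0, 56.8 and 32.3 (difference 1.08, SE 0.24, adjusted p = 0.416 and 0.0180 with the block). Array C was the lowest of its region for Sall1 in both regions.

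Neurog2, a proneural transcription factor that starts neuronal differentiation, had intensities of 73.8, 77.0 and 179.8 in nasal and 207.3, 244.6 and 381.5 in temporal cup. Array C was the highest in both regions, and within each letter the temporal array was higher, with differences of -1.31, -1.49 and -1.02. Neurog2 passed with the block (difference -1.27, SE 0.32, adjusted p = 0.606 and 0.0136 with the block). Glis3, a Krüppel-like zinc-finger factor, passed likewise with the block and not without it, higher in temporal cup, at 138.2, 147.7 and 123.4 against 282.1, 317.8 and 224.5 (difference -0.92, SE 0.17, adjusted p = 0.163 and 0.0274 with the block).

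**Figure D1:**
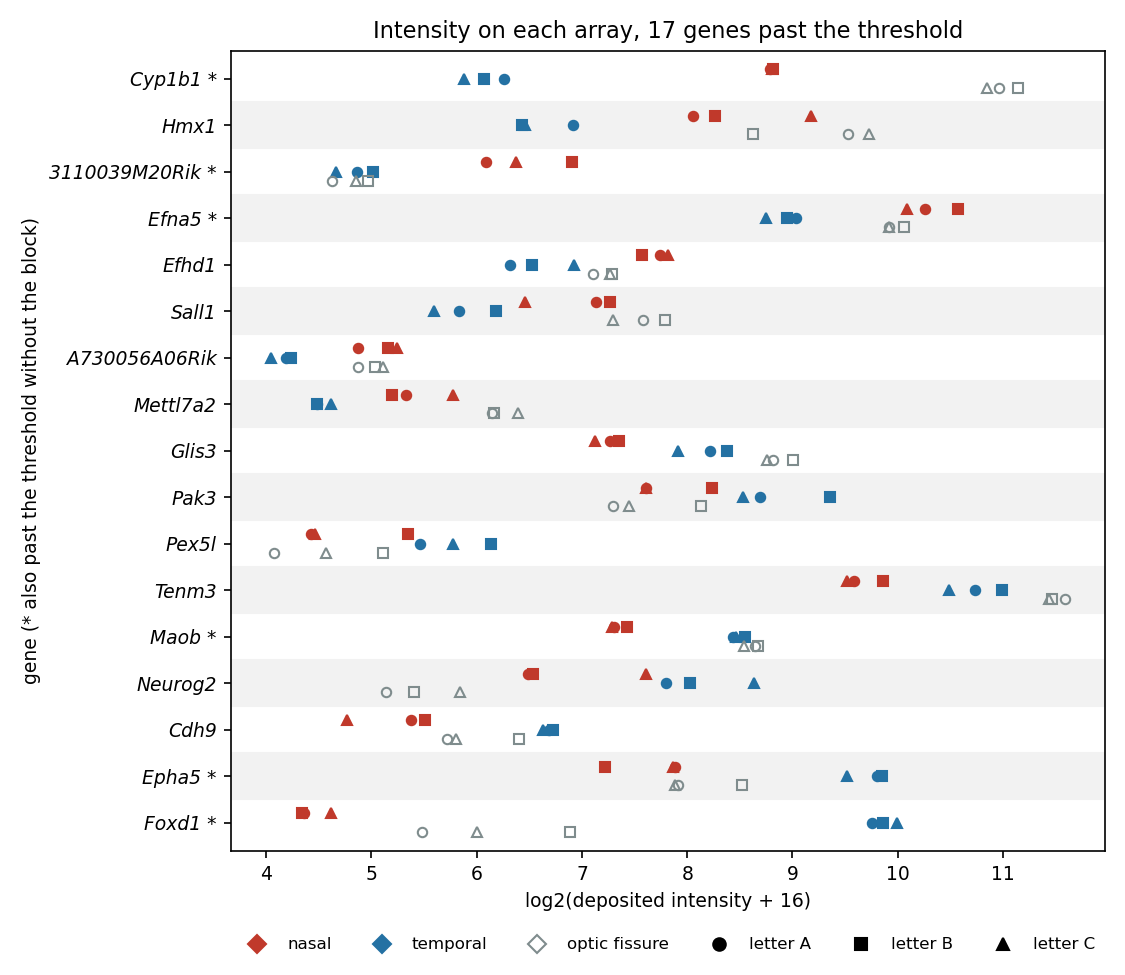
Intensity of the 17 genes that passed in either fit, on each nasal, temporal and optic fissure array, on a log axis of intensity + 16; each point is 1 array. For every gene the nasal and the temporal arrays are apart, with Foxd1 at 4.3 to 8.5 in nasal and 849.7 to 1004.4 in temporal cup.

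The guidance ligand and receptor of this axis differed in opposite directions. Efna5, which encodes the ephrin-A5 ligand, had intensities of 1212.0, 1512.1 and 1071.8 in nasal cup and 506.5, 477.5 and 415.0 in temporal cup. Every nasal value was above every temporal one, and the difference was 1.40 (SE 0.17, adjusted p = 0.0111; 0.00587 with the block). Without any 1 of 5 arrays Efna5 did not pass: without nasal array A the adjusted p was 0.0673, without nasal B 0.0509, without temporal A 0.0596, without temporal B 0.0630 and without temporal C 0.0596. A second probe set of Efna5 was dim, and the mean over both gave 0.84 (adjusted p = 0.0831).

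Epha5, a receptor for A-type ephrins, was measured at 220.3, 132.8 and 217.2 in nasal cup and at 875.8, 908.1 and 717.2 in temporal cup. The lowest temporal array was well above the highest nasal array. The difference was -2.07 (SE 0.23, adjusted p = 0.00769; 0.0136 with the block). Its other 3 probe sets were also higher in temporal cup without overlap, by -1.30, -2.53 and -1.87, and each of these passed on its own except the first (adjusted p = 0.131). Without temporal array A the adjusted p of Epha5 was 0.0596, and without temporal array B 0.0630.

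Of 18 tested Eph receptors and ephrins, 13 were lower in nasal cup, with a median difference of -0.19, beside 50.1% lower and a median of -0.00051501 over all genes. Besides Efna5 and Epha5 none passed in either fit. Epha7, another A-type receptor and chosen for naming after its values were seen, was at 91.4, 89.4 and 53.9 in nasal and 140.8, 144.7 and 140.8 in temporal cup (difference -0.77, SE 0.19, adjusted p = 0.606 and 0.224 with the block). Epha3, also a receptor for A-type ephrins, overlapped between the regions (difference 0.07, SE 0.27, adjusted p = 0.99985), and its sign turned in some settings.

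Cyp1b1, a cytochrome P450 that can oxidise retinol and retinal toward retinoic acid, was higher in nasal cup, with intensities of 424.7, 433.4 and 430.6 against 60.4, 51.1 and 42.8. The nasal arrays lay close together, and the temporal arrays were each far below them. The difference was 2.73 (SE 0.16, adjusted p = 9.56e-06; 2.42e-05 with the block). Near the fissure it was at 1976.4, 2246.3 and 1834.0, above both regions. Of the 18 tested genes of retinoic acid metabolism and signalling, 10 were lower in nasal cup with a median of -0.07, and none besides Cyp1b1 passed. Aldh1a1, a dorsal enzyme that makes retinoic acid from retinal and also chosen after its values were seen, had 2283.4, 860.3 and 1432.9 in nasal and 2626.2, 3082.3 and 3804.8 in temporal cup without overlap, at a difference of -1.14 (SE 0.30, adjusted p = 0.700 and 0.360 with the block).

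Maob, the mitochondrial enzyme that degrades monoamines, was higher in temporal cup, with 142.1, 156.7 and 140.2 in nasal and 330.1, 359.6 and 336.6 in temporal arrays. Both regions were tight, and the difference was -1.14 (SE 0.14, adjusted p = 0.0111; 0.00773 with the block). Without any 1 of the 6 arrays in turn its adjusted p lay between 0.0509 and 0.0978, so each array decided the call. Mettl7a2, a methyltransferase-like gene whose probe set is of a class that can bind related transcripts, passed with the block and not without it and was dim, at 24.2, 20.6 and 38.9 in nasal and 6.4, 6.3 and 8.5 in temporal cup (difference 0.91, SE 0.18, adjusted p = 0.244 and 0.0431 with the block).

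**Figure D2:**
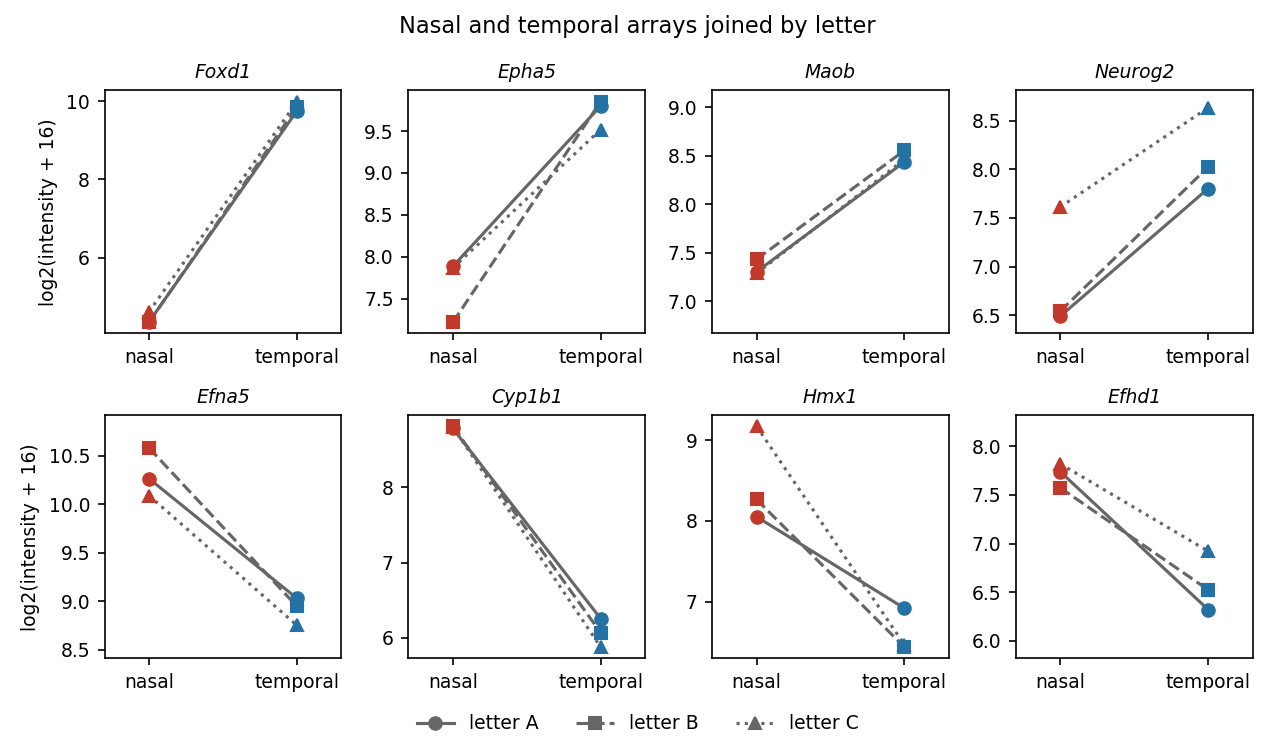
Intensity (log2 of intensity + 16) on the nasal and temporal arrays, joined by letter A, B and C. The genes shown are Foxd1, Epha5, Maob, Neurog2, Efna5, Cyp1b1, Hmx1 and Efhd1. For every gene shown the 3 lines slope the same way, which the lack of overlap fixes. The differences of Foxd1 are -5.40, -5.52 and -5.38.

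Among surface proteins, Tenm3, a teneurin that acts in cell adhesion and in the wiring of the retina, was higher in temporal cup, with 751.3, 912.2 and 716.8 against 1685.5, 2018.1 and 1415.8. It passed with the block and not without it (difference -1.08, SE 0.17, adjusted p = 0.0758 and 0.0219 with the block). On this probe set array B was the highest of its region in both. The difference within letters was steadier there than the levels, at -1.15, -1.13 and -0.97. Another bright probe set of Tenm3 was also higher in temporal cup without overlap, by -0.79. On that one temporal array B was the lowest of its region, and the differences within letters were -0.87, -0.53 and -0.97. Cdh9, a classical cadherin not on the adhesion list, was at 25.4, 29.4 and 11.3 in nasal and 87.3, 90.1 and 83.1 in temporal cup (difference -1.47, SE 0.23, adjusted p = 0.0758 and 0.0163 with the block); with no block it passed without fissure array B (0.0248). Of 35 tested adhesion genes, 23 were lower in nasal cup with a median of -0.11. Beyond Tenm3, Cldn1, a tight junction protein gene, was the largest of those at an unadjusted p below 0.05 that were higher in nasal cup (0.99), and Pcdh17 and Cdh11 were at -0.75 and -0.62; these 3 were chosen after their values were seen and did not pass.

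Pak3, a kinase that acts on the actin cytoskeleton downstream of Rac and Cdc42, had 179.2, 285.7 and 179.7 in nasal and 396.6, 640.8 and 353.7 in temporal cup. On this probe set array B was highest in both regions, and the difference was -1.04 (SE 0.28, adjusted p = 0.836 and 0.0163 with the block). The other tested probe sets of Pak3 were also higher in temporal cup without overlap, by -0.74 and -0.71. Nasal array B was not the highest of its region on either. Efhd1, a calcium-binding EF-hand protein gene, was higher in nasal cup at 197.7, 174.5 and 210.0 against 63.9, 76.0 and 105.2 (difference 1.12, SE 0.18, adjusted p = 0.0758 and 0.0232 with the block). Pex5l, a peroxisomal-targeting receptor relative, was dim, at 5.5, 24.6 and 6.0 against 28.1, 54.1 and 38.9 (difference -1.05, SE 0.31, adjusted p = 0.99985 and 0.0342 with the block), and its 3 other probe sets overlapped between regions, at 0.20 and 0.03 for the 2 that were tested and 0.16 for the dimmest, so that the probe sets of Pex5l disagree.

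The noncoding gene 3110039M20Rik had intensities of 52.0, 104.0 and 67.0 in nasal cup and 13.1, 16.4 and 9.3 in temporal cup. The temporal values were below the 40th percentile of their arrays, and the difference was 1.61 (SE 0.21, adjusted p = 0.0198; 0.00587 with the block). Its call was lost without temporal array A (adjusted p = 0.143), B (0.0630) or C (0.105) and with a pseudocount of 1 or 64. With the fissure arrays left out it was lost with no block (0.0572) and kept with the block (0.0439). It was above the filter only through the nasal arrays, so alternatives that drop a nasal array or raise the filter did not test it. A730056A06Rik, also named only by its clone, was dim in both regions, at 13.3, 19.7 and 21.8 against 2.2, 2.8 and 0.5 (difference 0.94, SE 0.16, adjusted p = 0.112 and 0.0431 with the block). It was above the filter only through nasal arrays B and C and fissure array C, and on no temporal array.

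**Figure D3:**
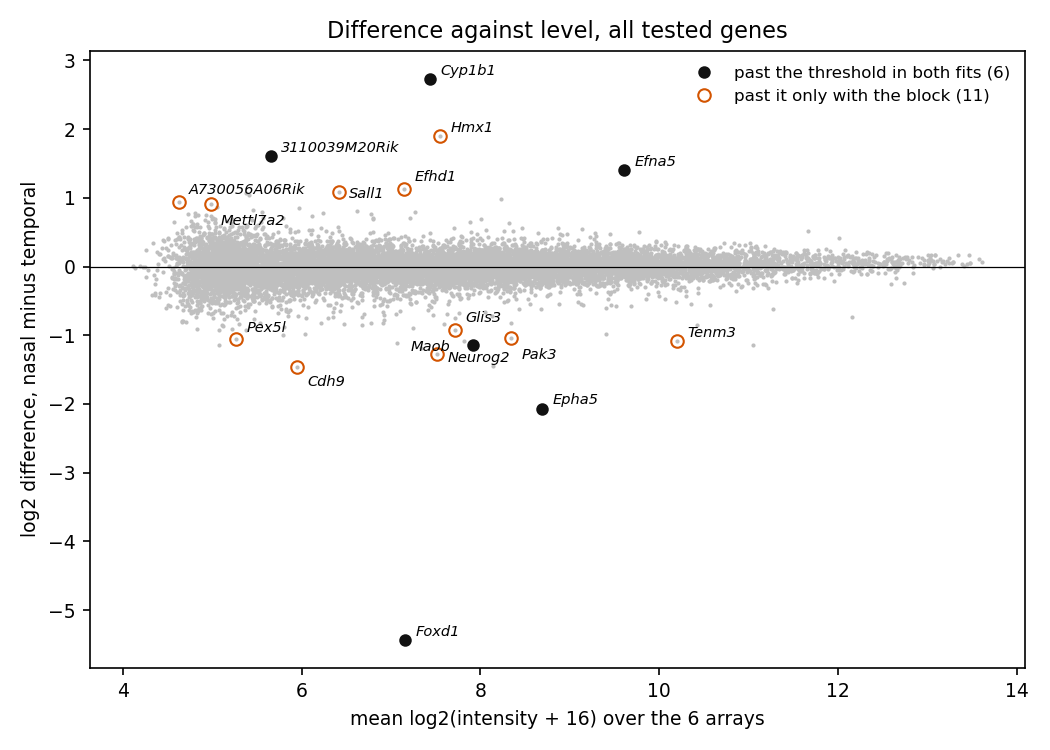
Difference between nasal and temporal cup (log2 of intensity + 16) against the mean level of each of the 12770 tested genes, with the 17 genes that passed in either fit marked. Foxd1 lies lowest at -5.43 and Cyp1b1 highest at 2.73.

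The 17 genes stood in different places relative to the fissure tissue, which is given as a description. Near the fissure, 5 of the 17 were above both the nasal and the temporal arrays (Cyp1b1, Sall1, Mettl7a2, Tenm3 and Glis3), 5 lay between them (Foxd1, Efna5, Epha5, Efhd1 and Cdh9) and Neurog2, at 19.1, 26.2 and 41.5, lay below both. The fissure arrays overlapped the higher of the regions for Maob, Hmx1 and A730056A06Rik, and the lower for 3110039M20Rik, Pex5l and Pak3. Foxd1 was at 28.6, 102.5 and 48.1 there, far nearer the nasal than the temporal level.

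Of the 14 other probe sets of the 17 genes, which belong to 7 of them, 9 were bright enough to be tested. Among these, 7 moved in the same direction without overlap, and the other 2 were of Pex5l. Each probe set on its own gave 16 past the threshold of 28899 tested (0.0554%), 10 higher in nasal and 6 higher in temporal cup. Of these, 9 belonged to the 6 genes and 7 had no name in the annotation used here (6 higher in nasal and 1 higher in temporal cup, with differences from -1.81 to 5.27).

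**Figure D4:**
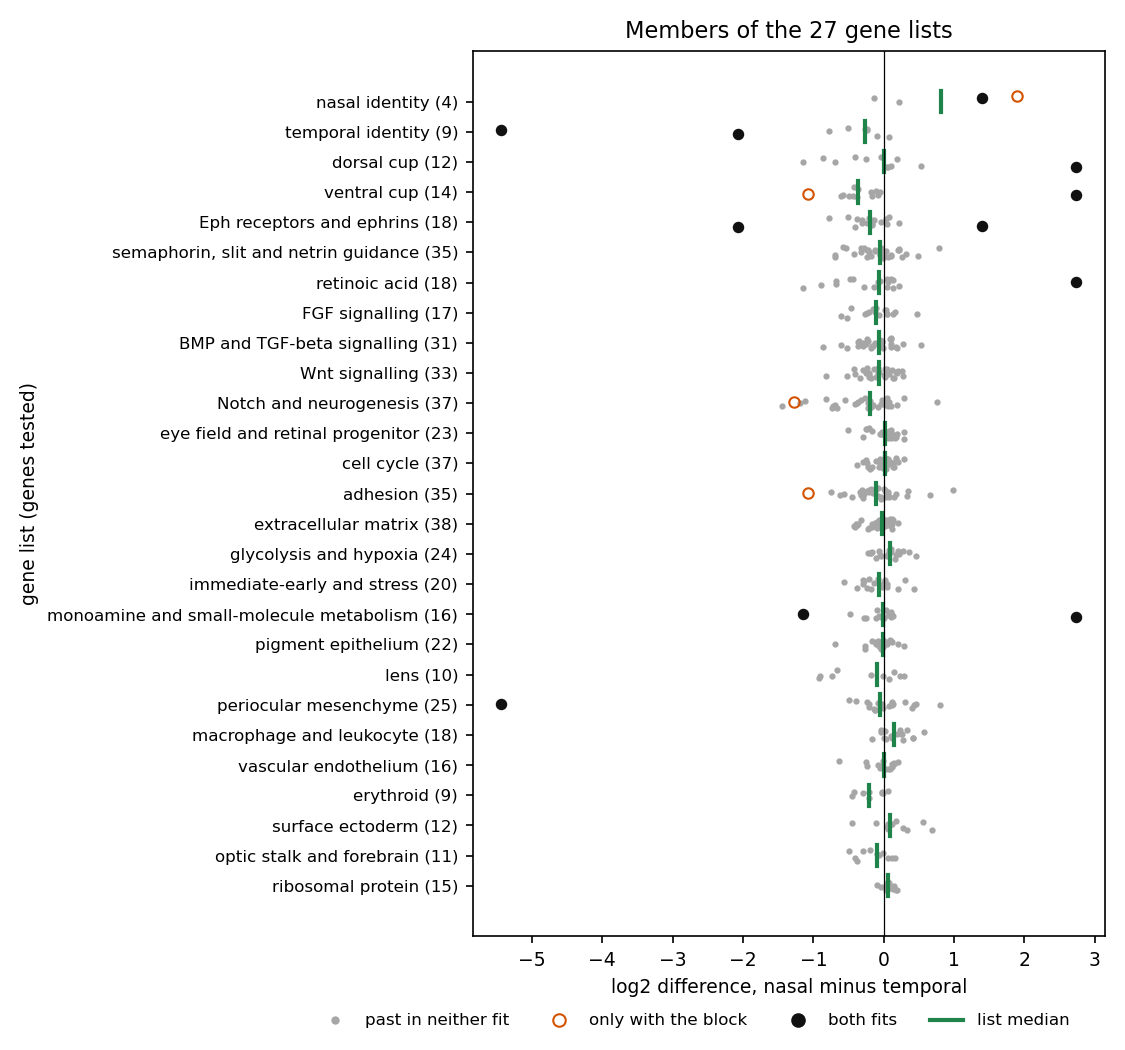
Median difference between nasal and temporal cup (log2 of intensity + 16) for each gene list, with its members as points. The list medians lie between -0.21 and 0.15, except nasal identity at 0.81, ventral cup at -0.37 and temporal identity at -0.26.

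Identity lists of this axis were read in counts. Of 9 tested genes of temporal identity, 8 were lower in nasal cup with a median of -0.26, and only Foxd1 and Epha5 passed; the nuclear receptor gene Nr2f1 overlapped (-0.26, SE 0.21, adjusted p = 0.99985), as did the forkhead gene Foxd2 (-0.10, SE 0.18). Of the 9 genes of nasal identity, 8 had a named probe set and 4 were tested, with a median of 0.81 and Efna5 and Hmx1 passing, Hmx1 with the block; the remaining genes are not analysed here. Since these genes were listed for their known place on the axis, and with results of these data known, their direction is a check of the labels and no new support.

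Genes of the dorsal-ventral axis were set beside these. Of 12 dorsal genes, 6 were lower in nasal cup and the median was 0.00, but 5 had an unadjusted p below 0.05. Besides Cyp1b1 and Aldh1a1 these were Msx2 (-0.87, SE 0.21), a homeobox gene downstream of BMP, Tbx3 (-0.69, SE 0.24), a T-box gene of dorsal retina, and Bmp2 (0.53, SE 0.19); they were chosen after their values were seen and did not pass. Of 14 ventral genes, 13 were lower in nasal cup, with a median of -0.37, and Cyp1b1, listed here as well, was the exception. Only Cyp1b1 and, with the block, Tenm3 passed.

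Genes of Notch signalling and neurogenesis were mostly lower in nasal cup: 28 of 37 tested, with a median of -0.20, beside 50.1% over all genes. Neurog2 alone passed, with the block. A further 6 lower and 1 higher gene had an unadjusted p below 0.05, chosen after their values were seen: Onecut2 (-1.19, SE 0.41), Neurod1 (-1.12, SE 0.33), Hes5 (-0.82, SE 0.29), Dll1 (-0.74, SE 0.27), Insm1 (-0.69, SE 0.27) and Btg2 (-0.38, SE 0.17) were lower, and the growth-cone protein gene Gap43 was higher (0.76, SE 0.20). Onecut2, Dll1 and Insm1 overlapped between regions. Within all 3 letters, 15 of the 37 were lower in nasal cup (40.5%) against 14.8% of all genes, and 5 were higher. Of 37 cell cycle genes, 16 were lower, with a median of 0.02 and none at an unadjusted p below 0.05 in limma; within all 3 letters 11 were higher in nasal cup (29.7%, against 14.2% of all genes) and 6 were lower (16.2%).

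Signalling and tissue lists contained no further call. Guidance molecules of the semaphorin, slit and netrin families had 23 of 35 lower and a median of -0.05, with Sema5b at 0.78 (SE 0.20, adjusted p = 0.678 and 0.106 with the block). FGF signalling had 10 of 17 lower (median -0.11), BMP and TGF-beta signalling 22 of 31 (-0.07), and Wnt signalling 17 of 33 (-0.07), where the inhibitor gene Dkk1 was at -0.82 (SE 0.25) and did not pass. Eye field and progenitor genes had 11 of 23 lower (0.01), extracellular matrix 20 of 38 (-0.02), glycolysis and hypoxia 8 of 24 (0.08, with 29.2% higher in nasal cup in all 3 letters), immediate-early and stress genes 12 of 20 (-0.06), ribosomal proteins 2 of 15 (0.06, with 6 of 15 higher in all 3 letters) and monoamine and small-molecule metabolism, which holds Maob and Cyp1b1, 8 of 16 (-0.01). Over all genes, 14.2% were higher and 14.8% lower in nasal cup in all 3 letters. The share lower in all 3 letters was 34.3% for semaphorins, slits and netrins (11.4% higher) and 32.3% for BMP and TGF-beta signalling (12.9% higher). It was 31.2% for monoamine and small-molecule metabolism (18.8% higher), 30% for immediate-early and stress genes (10% higher) and 29.4% for FGF signalling.

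Markers of other tissues that a cut could take in had summed intensities whose nasal and temporal ranges overlapped for all 8 lists. Within letters, the surface ectoderm sum was higher in nasal cup in every one, at 1662.9 against 1200.7 in A, 1301.3 against 983.5 in B and 1667.8 against 1453.0 in C. Krt18, chosen after its values were seen, was the brightest tested surface ectoderm marker, at a mean of 818.5 in nasal and 652.4 in temporal cup. Dsp, with the smallest p of these markers, had 112.8, 218.6 and 76.5 against 61.6, 86.8 and 67.5. Its difference was 0.69 (SE 0.28, limma adjusted p = 0.99985 and 0.688 with the block), and the regions overlapped. Of the 12 tested surface ectoderm markers, 4 (33.3%) were higher in all 3 letters against 14.2% of all genes. The other 7 sums had no such order. Pigment epithelium markers summed to 19691.6 to 23418.7 in nasal and 18273.1 to 22209.3 in temporal cup (24 markers), and 14 of 22 tested were lower in nasal cup (median -0.01). Lens markers summed to 751.8 to 814.2 and 695.3 to 1365.8 (17 markers, with temporal array A the highest, 6 of 10 lower, median -0.09), and Mip, Crygd and 4 others stood below the 40th percentile on all 6 arrays. The 2 tested lens markers with the smallest p were Crybb1 and Cryaa. Crybb1 had 9.5, 8.4 and 16.4 in nasal and 99.1, 10.7 and 27.7 in temporal cup (difference -0.91, SE 0.40). Cryaa had 20.4, 19.1 and 5.3 against 107.4, 2.8 and 64.1 (difference -0.92, SE 0.54). Both overlapped between regions and did not pass, and 4 of the 10 tested lens markers were higher in nasal cup. Mesenchyme, with Foxd1 left out of the sum, had 15 of 25 lower (median -0.05, Foxd1 counted). Macrophage and leukocyte markers summed to 667.2 to 925.6 and 540.1 to 808.7 (20 markers, 3 of 18 lower, median 0.15), with Aif1, C1qa, C1qc, Itgam and Fcer1g below the 40th percentile on all 6. Endothelial markers summed to 651.5 to 935.8 and 748.5 to 1051.8 (19 markers, 8 of 16 lower, median 0.01), with Pecam1, Tie1 and Erg below that level. Erythroid markers summed to 9558.9 to 14910.1 and 11638.4 to 13461.6 (10 markers, 8 of 9 lower, median -0.21), surface ectoderm to 1301.3 to 1667.8 and 983.5 to 1453.0 (18 markers, 2 of 12 lower, median 0.09, with Cdh1 and Krt14 among 6 below that level), and optic stalk and forebrain to 1072.2 to 1216.5 and 1042.2 to 1428.3 (17 markers, 8 of 11 lower, median -0.09). Their part in the differences above was not tested.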

How the data were processed

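The authors deposited probe set intensities on a linear scale; per the deposited values every array has a 2% trimmed mean near 150, and the sources used here do not name the summary or scaling method. Names came from the platform annotation, which can be old: of 45101 probe sets, 34945 had 1 symbol, 932 several and 9160 none, and 64 were controls. A gene (18193 in all) was represented by its brightest probe set on average. Analysis used log2(intensity + 16), and genes entered the test when 3 or more arrays put them above percentile 40 of that array. With limma 3.58.1 (lmFit and eBayes in R 4.3.3) all 9 arrays were modelled together, each region having its own mean, with Benjamini-Hochberg adjustment and a threshold of 0.05. The fit without the block was tested on simulated data in which arrays of a letter shared no deviation. The fit with the block was not tested in this way. Figures were drawn with matplotlib 3.10.9. The number of arrays limits precision, and with 3 against 3 arrays an exact two-sided permutation test of a single gene cannot go below 0.10, so none is given.

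After removing region means, nasal and temporal arrays of 1 letter correlated at 0.338 to 0.487 (3 pairs) and those of different letters at -0.397 to -0.0562 (6 pairs). Over all regions every same-letter pair was above 0.1 (0.166 to 0.487), but other-letter pairs ran from -0.438 to 0.218, so the ranges overlapped. Fissure array A correlated at 0.166 with nasal A and 0.184 with nasal C, and at 0.229 with temporal A and 0.218 with temporal C. Letters were treated as pairs, which rests on the nasal and temporal data and not on a label. For fissure array A, which also enters the blocked fit, the data do not set its own letter apart. The blocked value is printed beside each call. Named were the genes past the threshold without overlap in either fit, identity genes that a reader of this axis would look for, and of other lists the members that passed or else at most the 2 with the smallest p; other names are marked as chosen after their values were seen. The gene lists (27 with 627 genes, 515 tested) and the members were chosen with earlier results of these data known.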

Additional observations from a re-analysis of the deposited data

How the results depend on the processing

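Across 25 alternatives, 9 of them leaving out 1 array, Foxd1 and Cyp1b1 passed in every one, Epha5 in 21, Efna5 and Maob in 15 each and 3110039M20Rik in 12 of the 18 that tested it. Of the 11 genes that passed with the block and not in the reported fit, Tenm3 passed in 6, Cdh9 in 5, Efhd1 in 3, A730056A06Rik in 3 of 17, Hmx1, Neurog2 and Glis3 in 2 each, and Sall1, Pak3, Mettl7a2 and Pex5l in 1, the block itself. The counts of all 11 include the block, by which these genes were chosen, so that 1 pass was fixed in advance. The number of genes past the threshold, 6 in the reported fit, was 17 with the letter as replicate block (8 higher in nasal, 9 in temporal cup), 10 with the replicate block on the nasal and temporal arrays only (7 higher in temporal cup), 3 with those arrays and no block (1 higher in nasal cup), 10 with array weights (6 higher in temporal cup), and 16 probe sets when each was tested on its own (10 and 6). With the mean over probe sets, 5 were higher in temporal cup. Leaving out 1 array gave 2 to 8 genes, with 1 to 4 higher in nasal and 1 to 4 higher in temporal cup. Without the 3 arrays of letter A, B or C there were 2, 3 and 2, with 1, 1 and 1 higher in nasal and 1, 2 and 1 in temporal cup; in turn the adjusted p of Efna5 was then 0.925, 0.167 and 0.232, that of Epha5 was 0.642 without A and 0.0796 without C, and Maob passed in none of them. With the nasal and temporal arrays alone, Efna5 and Maob were lost with no block (adjusted p = 0.0508 each) and kept with the block (0.0439 each). Over all alternatives the difference ran from -7.14 to -3.82 for Foxd1 and from 1.44 to 3.05 for Cyp1b1. Among the named genes, whose signs alone were followed, the sign turned for 3 that did not pass: Foxd2 (-0.22 to 0.055 when 1 array was left out, with 0.055 without temporal C, and 0.039 without letter C), Epha3 (-0.020 with the mean over probe sets, -0.14 with array weights, -0.072 to 0.26 when 1 array was left out, below 0 without nasal C or temporal C, and -0.19 without letter C) and the endothelial gene Mmrn2 (0.20 in the reported fit, -0.00315 with the mean over probe sets, -0.033 without letter C). Median differences over all genes stayed between -0.022 and 0.024. Values near or below the 40th percentile, such as those of Foxd1 in nasal cup, are limited by the background of the array.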
